A study of Homo sapiens with 24 samples.

Results

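Expression of 10 genes of the NF-kB pathway was followed after knockdown of FAM167A (DIORA1) in human neuroblastoma cells. The genes encode 4 subunits of the transcription factor (NFKB1, NFKB2, RELA and RELB), the inhibitors NFKBIA and TNFAIP3, the ubiquitin ligase BIRC3, and the effectors SOD2, ICAM1 and VCAM1. They were chosen by name, with earlier results of these data known, and matched by Ensembl ID. All 10 were found in each of the 3 count tables. These tables list 58735 (SK-N-SH siRNA), 61541 (SK-N-SH CRISPRi) and 78932 (SK-N-AS CRISPRi) genes. The 24 RNA sequencing libraries fall into 6 groups. SK-N-SH cells received a siRNA pool against FAM167A (5 libraries) or a non-targeting siRNA (5 libraries). In CRISPR interference (CRISPRi) a Cas9 protein fused to the KRAB repressor silences the gene a guide RNA directs it to. SK-N-SH (3 against 3 libraries) and SK-N-AS (4 against 4 libraries) cells carried SpCas9-KRAB with a guide against FAM167A or with a control guide against Gal4, a yeast sequence, so that the CRISPRi controls carry the repressor too. No group received a cytokine or other stimulus per the labels, and the sources used here do not give the time after knockdown or whether the CRISPRi cells were pools or single clones. Separate cultures are not stated either, so the p-values measure the spread between these libraries, which may be technical.

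NF-kB proteins act as pairs that are held inactive until a signal frees them. In the canonical arm, the IKK kinase complex triggers loss of the inhibitor IkBalpha, encoded by NFKBIA, and pairs of RELA with p50, the product of NFKB1, enter the nucleus. In the noncanonical arm the kinase NIK (MAP3K14) accumulates, p100 from NFKB2 is processed to p52, and p52 acts with RELB. NFKB1, NFKB2, RELB, NFKBIA, TNFAIP3 and BIRC3 are themselves classical targets of the factor, which makes them feedback components. FAM167A has been described in leukaemia cells as an activator of the noncanonical arm.

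Promoter sequences are shown first, since several of these genes are themselves targets of the factor. RefSeq promoter windows, from 250 bases before to 50 after a transcription start (GRCh38.p14), were found for 9 of the 10 genes, 16 windows in all. RELB had none. The NF-kB consensus, searched on both strands, was in a window of 6 of the 9 genes (NFKB1, NFKB2, NFKBIA, TNFAIP3, BIRC3 and VCAM1), and in 7.09% of the 27305 genes with a window. A shorter core, GGANNTNCC on either strand, was added after the windows had been seen and overlaps the consensus. It was in a window of 8 of the 9 genes, RELA and ICAM1 joining, and in 19% of all genes. The 4 SOD2 windows held neither. One match for each of the genes that the results below turn on is shown on the gene's own strand, with the matched letters in capitals.
NFKB1, chr4:102501300-102501329, plus strand, consensus at -49 to -40 from the start: cgacgtcagtGGGAATTTCCagccaggaag
NFKB2, chr10:102395674-102395703, plus strand, consensus at -21 to -12 from the start: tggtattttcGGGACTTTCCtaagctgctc
NFKBIA, chr14:35404811-35404840, minus strand, consensus at -81 to -72 from the start: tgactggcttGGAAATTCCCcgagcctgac
TNFAIP3, chr6:137867182-137867211, plus strand, consensus at -67 to -58 from the start: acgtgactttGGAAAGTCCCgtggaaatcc
BIRC3, chr11:102317275-102317304, plus strand, consensus at -199 to -190 from the start: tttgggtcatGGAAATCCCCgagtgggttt
VCAM1, chr1:100719670-100719699, plus strand, consensus at -62 to -53 from the start: tccccttgaaGGGATTTCCCtccgcctctg
ICAM1, chr19:10270924-10270953, plus strand, shorter core at -186 to -178 from the start: gctttagcttGGAAATTCCggagctgaagc

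A match describes letters in a window and is neither a measured binding site nor a cause of any change below, and a window without one says nothing about the factor at that gene. NFKB2, TNFAIP3 and BIRC3 held more than 1 match to the consensus.

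**Figure D1:**
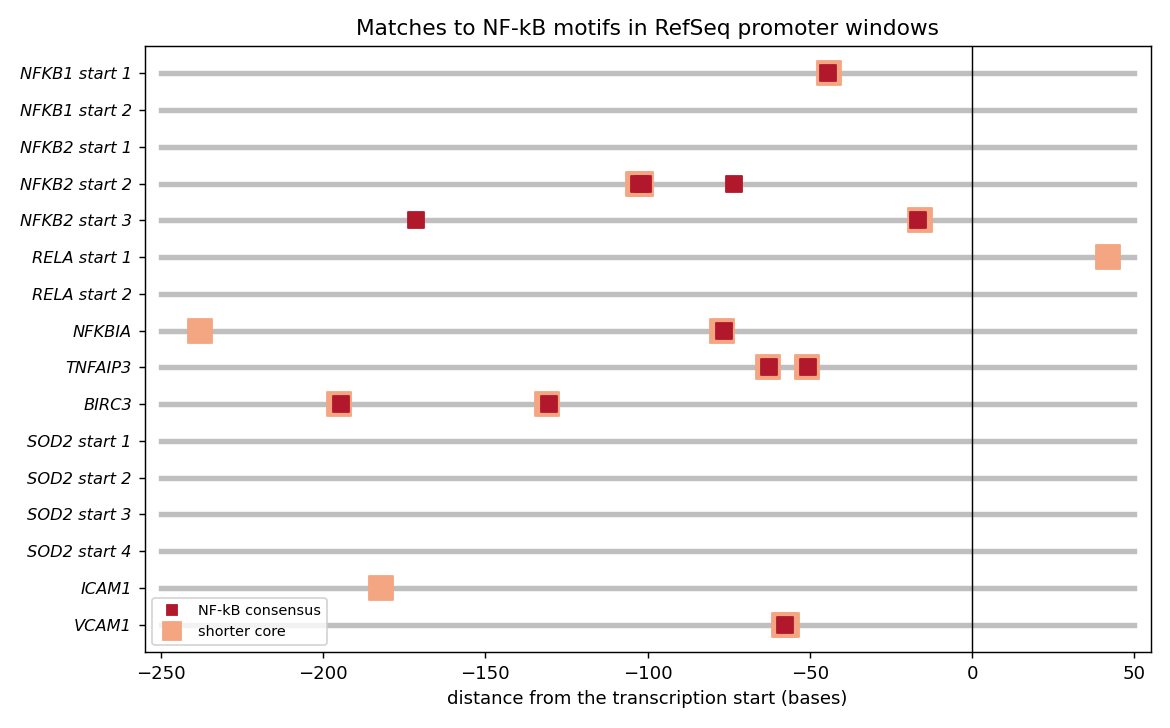
Matches to the NF-kB consensus (dark squares) and to the shorter core (light squares) in the 16 RefSeq promoter windows of 9 genes, plotted by distance from the transcription start in bases (x axis). Matches lie in 1 or more windows of 8 genes, and the 4 SOD2 windows are empty.

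Libraries held between 71464698 and 90255175 counted reads with siRNA, 11690515 and 21628076 in SK-N-SH CRISPRi, and 29985858 and 104455853 in SK-N-AS CRISPRi. CPM stands for reads of a gene divided by the scaled size of its library, and groups are given as mean ± SD. A log2 fold change compares knockdown with control and carries its standard error after ±. A gene rose or fell where the adjusted p of edgeR's quasi-likelihood test, over all genes tested, lay under 0.05. FAM167A fell to 34.7% of control with siRNA, 1.33% in SK-N-SH CRISPRi and 10.7% in SK-N-AS CRISPRi. Over all genes tested, 2.55% rose and 6.98% fell with siRNA, 27.7% and 28% in SK-N-SH CRISPRi, and 15.2% and 15.5% in SK-N-AS. Of the marker lists, 3 of 9 tested adrenergic neuroblastoma genes rose with siRNA, while 9 of 9 fell in SK-N-SH CRISPRi and 5 of 10 in SK-N-AS. Of 10 mesenchymal neuroblastoma genes, 7 fell with siRNA, 6 rose and 2 fell in SK-N-SH CRISPRi, and 7 rose and 3 fell in SK-N-AS. Summed markers lay at or below 6.80 CPM for endothelial cells, 5.63 CPM for glia and 33.8 CPM for epithelial cells in all libraries, the last almost all from CLDN4 in SK-N-AS (31.3 CPM in controls). Fibroblast and smooth muscle markers rose in SK-N-SH CRISPRi (6 of 6 tested, summed level 5065 to 5897 CPM in controls and 11210 to 11840 CPM after knockdown). They were 3 up and 1 down of 7 with siRNA and 4 up and 2 down of 6 in SK-N-AS. Blood cell markers summed to at most 2.48 CPM in SK-N-SH. They reached 518 to 562 CPM in SK-N-AS controls and 437 to 465 CPM after knockdown, almost all of it PTPRC (541.5 and 450.6 CPM), with CD3E at 0. In bulk RNA, fewer cells of a type and less RNA per cell cannot be told apart.

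In the control libraries the order of the 10 genes by RNA level differed between the lines, and also between the SK-N-SH control sets. RELB and NFKB1 ranked 5 and 6 with the control siRNA, and 7 and 4 with the control guide in SK-N-SH. Levels are per kilobase of the annotated length of each gene, taken from the siRNA experiment for all sets, so the order depends on that annotation. By this measure RELA was the most abundant of the 10 genes in SK-N-SH controls. It stood at 16.9 ± 0.957 CPM per kilobase with the control siRNA (n = 5) and 20.3 ± 0.225 with the control guide (n = 3). NFKBIA stood first in SK-N-AS controls at 87.7 ± 1.82 CPM per kilobase (n = 4), against 11.4 ± 1.35 and 11.8 ± 0.774 in the SK-N-SH sets. TNFAIP3, an enzyme that edits ubiquitin chains and ends canonical signalling, was lowest in each set, at 0.121 ± 0.0559, 0.0458 ± 0.0113 and 1.6 ± 0.145 CPM per kilobase. Neighbours in the order were often close. With siRNA controls, RELB at 6.52 ± 0.814 and NFKB1 at 6.01 ± 0.272 CPM per kilobase lay within their spread, as did NFKB2 at 20.3 ± 0.374 and RELA at 21.4 ± 0.875 in SK-N-AS. The tables were counted and scaled separately, so levels are set side by side with no test between them. RELA had the closest control means, at 92.5, 110.9 and 116.8 CPM.

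**Figure D2:**
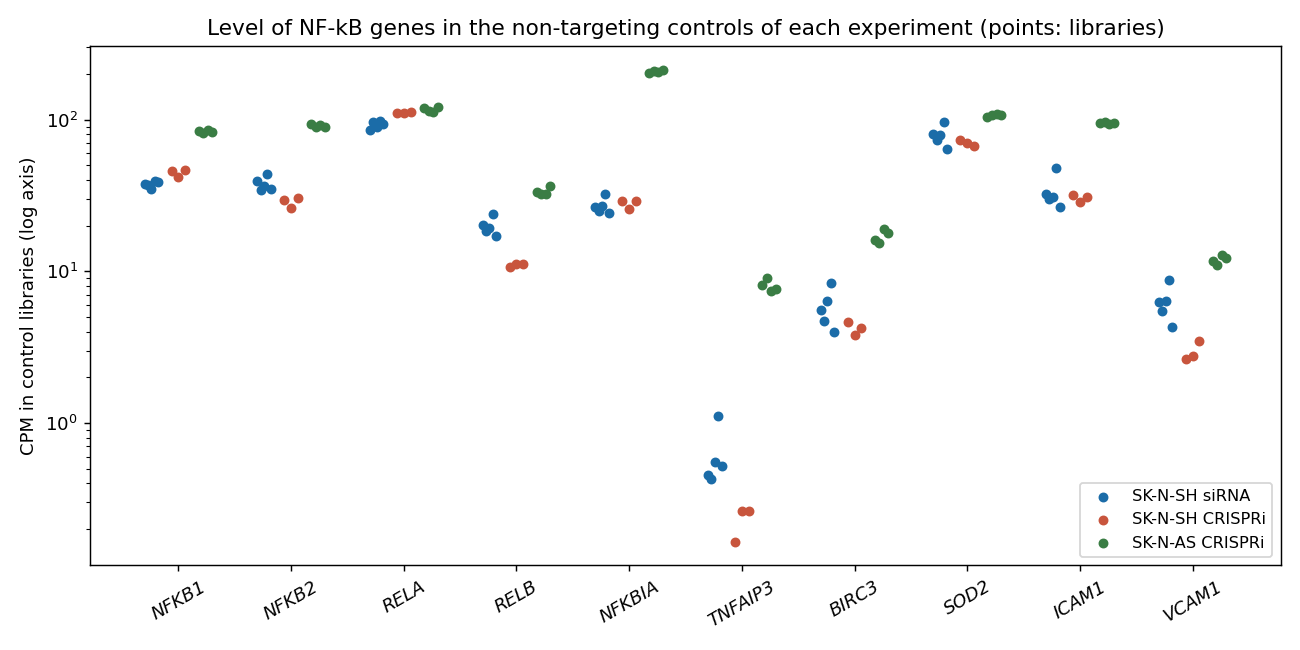
CPM of each of the 10 genes in every control library (log y axis), by experiment: SK-N-SH siRNA (5 points), SK-N-SH CRISPRi (3 points) and SK-N-AS CRISPRi (4 points). All SK-N-AS points lie above all SK-N-SH points for each gene except RELA, and TNFAIP3 is the lowest gene in each experiment.

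The 10 genes were chosen with earlier results of these data known, so the counts below are description and not independent support. With siRNA 6 of the 10 genes fell and none rose, while 6.98% of the 21018 genes tested fell and 9.53% changed either way. NFKB2, RELB, NFKBIA, SOD2, ICAM1 and VCAM1 fell, by 1.21-fold to 1.55-fold. All 10 fold changes were below 0, with a median log2 value of -0.35 against 0.01 over all genes tested. In SK-N-SH CRISPRi 5 of the 10 rose (NFKB1, NFKB2, RELB, TNFAIP3 and VCAM1) and none fell, with 27.7% of the 15391 genes tested rising and 55.8% changing either way. The share of the 10 that changed, 50%, was thus below that of all genes. In SK-N-AS CRISPRi 8 of the 10 rose and none fell, where 15.2% of the 19277 genes tested rose and 30.6% changed either way. RELA and VCAM1 were the exceptions there. All 10 genes passed the filter on low counts in each experiment, but TNFAIP3 passed in SK-N-SH CRISPRi through its knockdown libraries alone. No gene had the same call in all 3 experiments, and 6 (NFKB2, RELB, NFKBIA, SOD2, ICAM1 and VCAM1) fell in one and rose in another. Knockdown and control libraries did not overlap for 3 of the 10 with siRNA (8.74% of all genes tested), 7 in SK-N-SH CRISPRi (60.7%) and 8 in SK-N-AS (29.1%).

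**Figure D3:**
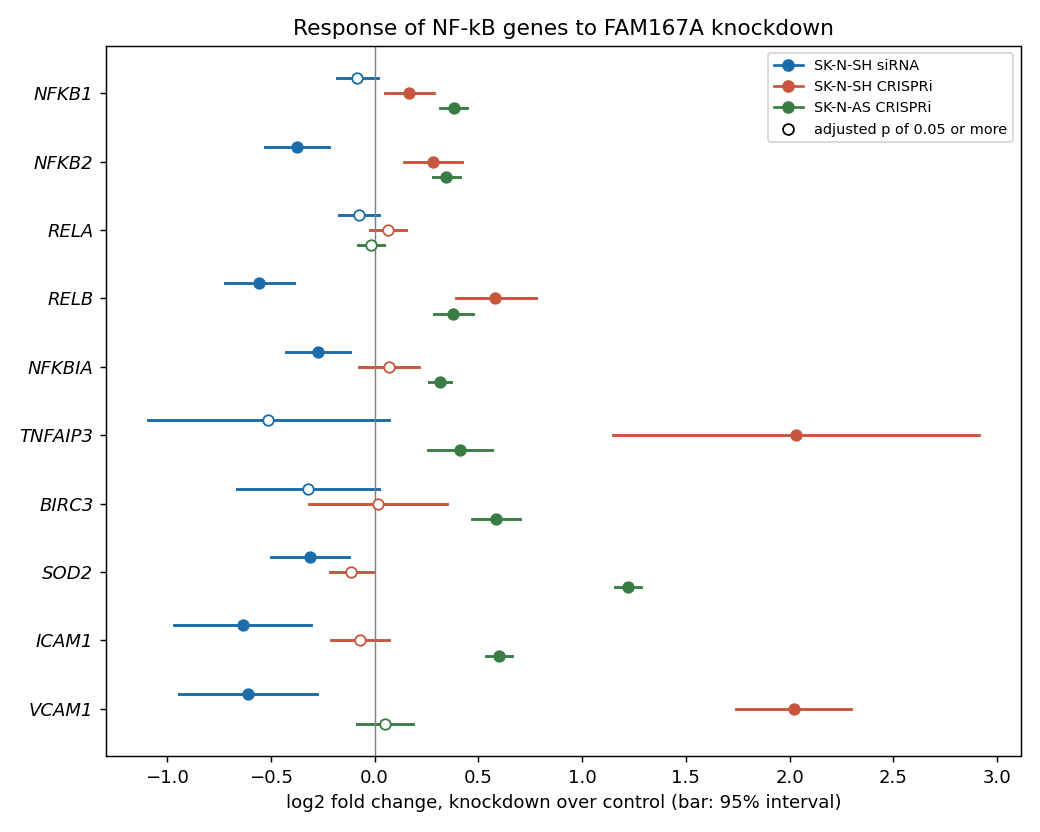
Log2 fold change of each gene, knockdown over control (x axis), with its 95% interval, for SK-N-SH siRNA, SK-N-SH CRISPRi and SK-N-AS CRISPRi; open circles mark an adjusted p of 0.05 or more. The siRNA points all lie left of 0, and SOD2 in SK-N-AS and VCAM1 and TNFAIP3 in SK-N-SH CRISPRi lie beyond 1.

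The fall with siRNA came with spread among the controls. Control library 4 was the highest control for all 10 genes and control library 5 the lowest for 6 (BIRC3, ICAM1, NFKBIA, RELB, SOD2 and VCAM1). Library 4 was singled out after its values were seen, and it was the highest control for 18.9% of all genes tested. With the libraries left out in turn, the count of 6 lay between 2 and 7: 2 without knockdown library 1 or without knockdown library 4, 3 without control library 3 and 7 without control library 5. It was 6 with control libraries 4 and 5 both left out. NFKB2 and RELB passed in each of these fits. Mesenchymal markers moved the same way as the 10 genes in this experiment (7 of 10 fell, summed level 2617 to 2835 CPM in controls and 2081 to 2351 CPM after knockdown), and their part in the result was not tested.

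RELB, the subunit that acts mainly with p52, passed in all 3 experiments, down with siRNA and up with CRISPRi. With siRNA, control libraries 1 to 5 had 20.2, 18.6, 19.2, 23.8 and 17.2 CPM and knockdown libraries 1 to 5 had 11.6, 13.6, 13.7, 15.1 and 13.3 CPM. No knockdown library reached the lowest control, and RELB fell 1.47-fold (19.8 ± 2.47 to 13.5 ± 1.26 CPM, n = 5; log2 fold change -0.56 ± 0.08, adjusted p = 5.28e-05). In SK-N-SH CRISPRi, control libraries 1 to 3 had 10.8, 11.2 and 11.2 CPM and knockdown libraries 1 to 3 had 15.3, 17.5 and 16.9 CPM. Here every knockdown library was the higher, and RELB rose 1.5-fold (11.02 ± 0.234 to 16.6 ± 1.12 CPM, n = 3; log2 0.58 ± 0.095, adjusted p = 2.13e-06). SK-N-AS controls had 33.2, 32.5, 32.4 and 36.7 CPM and the knockdown libraries 45.8, 45.3, 40.4 and 43.6 CPM. Again without overlap, RELB rose 1.30-fold (33.7 ± 2.05 to 43.8 ± 2.43 CPM, n = 4; log2 0.38 ± 0.046, adjusted p = 3.75e-08).

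NFKB2, which encodes p100, the precursor of p52, moved with RELB in each experiment. Its siRNA controls had 39.3, 34.1, 36.5, 43.9 and 35.1 CPM and its knockdown libraries 26.1, 27.4, 33.8, 30.01 and 28.5 CPM. The groups came closest in control library 2 and knockdown library 3 without overlapping, and NFKB2 fell 1.30-fold (log2 fold change -0.38 ± 0.073, adjusted p = 0.0019). In SK-N-SH CRISPRi the controls had 29.4, 26.3 and 30.5 CPM and the knockdown libraries 34.9, 35.3 and 35.1 CPM. This 1.22-fold rise (log2 0.28 ± 0.068, adjusted p = 0.000577) and that in SK-N-AS, from 89.6 to 93.3 CPM in controls to 109.9 to 120.3 CPM, 1.27-fold (log2 0.35 ± 0.032, adjusted p = 8.38e-11), were free of overlap.

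Of the canonical subunits, NFKB1 rose in both CRISPRi experiments and RELA passed in none. NFKB1, the precursor of p50, lay between 35.1 and 39.4 CPM in siRNA controls and between 34.1 and 37.8 CPM after knockdown (log2 fold change -0.08 ± 0.047, adjusted p = 0.32), so the groups overlapped. It rose 1.12-fold in SK-N-SH CRISPRi, from 45.9, 42.1 and 46.6 CPM to 48.5, 53.5 and 49.6 CPM (log2 0.17 ± 0.059, adjusted p = 0.0147). It no longer passed without control library 2 (0.0825) or knockdown library 2 (adjusted p = 0.0986). In SK-N-AS it rose 1.30-fold, from 81.5 to 85.7 CPM in controls to 104.6 to 112.1 CPM (log2 0.38 ± 0.032, adjusted p = 5.15e-12), with no overlap. RELA, the main activating subunit of the canonical arm, did not pass in any experiment. Its log2 fold changes were -0.08 ± 0.048 (95% interval -0.17 to 0.02), 0.07 ± 0.043 (-0.02 to 0.15) and -0.02 ± 0.031 (-0.08 to 0.05) for siRNA, SK-N-SH CRISPRi and SK-N-AS CRISPRi, with adjusted p of 0.388, 0.199 and 0.752.

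**Figure D4:**
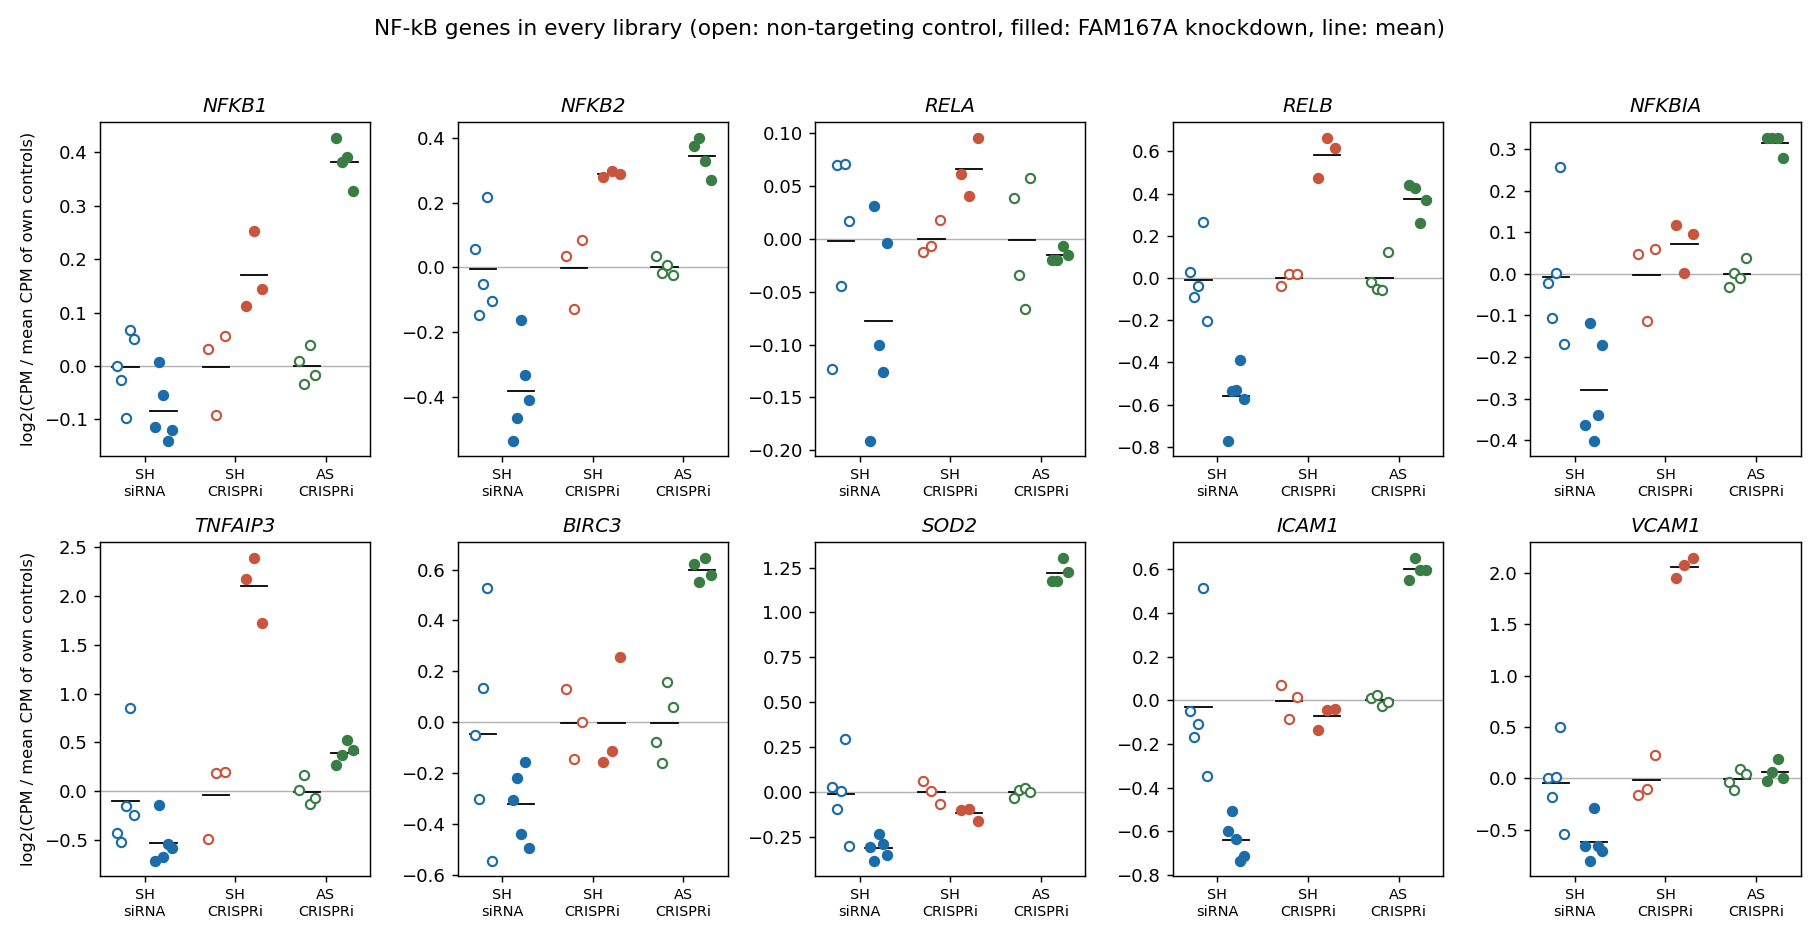
Each library's CPM of the 10 genes as the log2 ratio to the mean of its own controls (y axis, its scale set for each gene), in control (open) and knockdown (filled) libraries of the 3 experiments, with a line at the group mean. For RELB and NFKB2 the filled points lie below the open ones with siRNA and above them in both CRISPRi experiments.

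NFKBIA, the inhibitor that retains RELA pairs in the cytoplasm and is resynthesised after activation, had 26.7, 25.1, 27.1, 32.4 and 24.1 CPM in siRNA controls. The knockdown libraries had 21.0, 24.9, 20.5, 21.4 and 24.1 CPM, overlapping control library 5 alone. It fell 1.21-fold (log2 fold change -0.27 ± 0.074, adjusted p = 0.0213), and the call was lost without control library 3 or 4 or knockdown library 1, 3 or 4 (adjusted p from 0.0501 to 0.0734). In SK-N-SH CRISPRi it did not pass (27.9 ± 1.84 and 29.4 ± 1.24 CPM, n = 3; adjusted p = 0.42). In SK-N-AS it stood at 203.6 to 213.9 CPM in controls and 252.7 to 261.3 CPM after knockdown. The groups were far apart beside their spread, and NFKBIA rose 1.25-fold (log2 0.32 ± 0.026, adjusted p = 4.38e-12).

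TNFAIP3, the ubiquitin-editing brake also called A20, was too scarce in SK-N-SH for a firm value. With siRNA its controls had 0.455, 0.427, 0.552, 1.11 and 0.518 CPM and its knockdown libraries 0.374, 0.554, 0.384, 0.423 and 0.411 CPM. It did not pass (log2 fold change -0.51 ± 0.28, adjusted p = 0.304), and without control library 4 the log2 fold change was -0.19. In SK-N-SH CRISPRi it had 2, 4 and 6 reads in the controls and 16, 18 and 12 in the knockdown libraries. It was tested because the knockdown libraries alone reached the count filter, so it had to differ, and its call there (log2 2.03 ± 0.43, adjusted p = 0.000132) is not support for a rise. In SK-N-AS, where it was well above the filter, it rose 1.33-fold, from 8.15, 9.06, 7.39 and 7.67 CPM to 9.75, 10.4, 11.6 and 10.8 CPM (log2 0.41 ± 0.075, adjusted p = 4.62e-05), without overlap.

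BIRC3 (cIAP2) is a ubiquitin ligase that helps assemble canonical receptor complexes and, with TRAF3 and BIRC2, keeps NIK low. Its siRNA controls had 5.57, 4.67, 6.33, 8.32 and 3.95 CPM and its knockdown libraries 4.66, 4.95, 4.25, 5.18 and 4.09 CPM. The controls spanned all knockdown values, and BIRC3 did not pass (log2 fold change -0.32 ± 0.16, adjusted p = 0.268). It did pass without control library 5 (adjusted p = 0.0375). In SK-N-SH CRISPRi, it did not pass (4.23 ± 0.402 and 4.25 ± 0.691 CPM, n = 3; log2 0.02, 95% interval -0.32 to 0.35). It rose 1.5-fold in SK-N-AS, from 16.2, 15.3, 19.0 and 17.8 CPM to 26.2, 25.0, 26.8 and 25.5 CPM (log2 0.59 ± 0.057, adjusted p = 2.02e-10), every knockdown library being higher.

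SOD2, the mitochondrial superoxide dismutase and a strongly inducible NF-kB target, gave the largest change of the 10 genes in SK-N-AS. Controls had 104.2, 107.5, 108.4 and 106.5 CPM and knockdown libraries 240.6, 240.9, 263.6 and 249.1 CPM. Every knockdown library was more than 2-fold above every control library, and SOD2 rose 2.33-fold (106.7 ± 1.84 to 248.6 ± 10.8 CPM, n = 4; log2 fold change 1.22 ± 0.03, adjusted p = 1.88e-26). In SK-N-SH it did not rise by either method. With siRNA it had 80.1, 73.5, 78.8, 96.1 and 63.7 CPM in controls and 63.5, 60.2, 66.8, 64.2 and 61.4 CPM after knockdown, overlapping only through control library 5. It fell 1.24-fold (log2 -0.31 ± 0.086, adjusted p = 0.0405), a call lost in 7 of the 10 fits that leave out a library (adjusted p from 0.056 to 0.103: without control library 1, 2 or 3 or knockdown library 1, 2, 4 or 5). In SK-N-SH CRISPRi it had 73.2, 70.5 and 67.1 CPM in controls and 65.5, 65.9 and 62.9 CPM after knockdown (log2 -0.11 ± 0.051, adjusted p = 0.0575), and passed without control library 3 (adjusted p = 0.0319). The WTAP and ACAT2 genes are annotated on the opposite strand within or beside SOD2, and the sources used here do not give the strand setting of the counting. With siRNA neither passed (log2 -0.02 and -0.03). In SK-N-SH CRISPRi ACAT2 fell (log2 -0.50, adjusted p = 2.19e-08) and WTAP did not pass (0.02). In SK-N-AS WTAP rose (0.11, adjusted p = 0.0399) and ACAT2 did not pass (-0.05). Their part in the SOD2 values was not tested.

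ICAM1, an adhesion ligand of leukocyte integrins, had calls in the same directions as SOD2. Its siRNA controls had 32.4, 29.8, 31.1, 47.9 and 26.4 CPM and its knockdown libraries 22.1, 23.6, 21.6, 20.1 and 20.4 CPM. No libraries overlapped, and ICAM1 fell 1.55-fold (33.5 ± 8.32 to 21.6 ± 1.38 CPM, n = 5; log2 fold change -0.64 ± 0.147, adjusted p = 0.0236). The call was lost without control library 1 or knockdown library 1, 3, 4 or 5 (adjusted p from 0.053 to 0.0709). It did not pass in SK-N-SH CRISPRi, at 31.9, 28.6 and 30.7 CPM in controls and 27.7, 29.5 and 29.6 CPM after knockdown (log2 -0.07, 95% interval -0.21 to 0.07). In SK-N-AS it rose 1.52-fold, from 95.7, 96.8, 93.5 and 94.8 CPM to 139.3, 149.7, 144.1 and 144.0 CPM (log2 0.60 ± 0.03, adjusted p = 7.95e-18), with wide separation.

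VCAM1, the adhesion ligand of the integrin with subunits ITGA4 and ITGB1, had the opposite pattern of lines. In SK-N-SH CRISPRi, control libraries had 2.65, 2.77 and 3.48 CPM and knockdown libraries 11.4, 12.5 and 13.2 CPM. It rose 4.05-fold there without overlap (2.97 ± 0.452 to 12.4 ± 0.868 CPM, n = 3; log2 fold change 2.02 ± 0.137, adjusted p = 1.28e-15). Adrenergic markers fell and fibroblast and smooth muscle markers rose in the same libraries (above), and summed endothelial markers were 4.32 to 5.61 CPM in controls and 5.80 to 6.80 CPM after knockdown (2 of 4 tested rose and 1 fell). The part of these markers in the rise was not tested. With siRNA it had 6.28, 5.51, 6.33, 8.81 and 4.30 CPM in controls and 3.95, 3.59, 5.13, 3.97 and 3.83 CPM after knockdown, overlapping through knockdown library 3 and control library 5. It fell 1.53-fold (log2 -0.61 ± 0.155, adjusted p = 0.0199), a call lost without control library 3 or knockdown library 1, 2 or 4 (adjusted p from 0.0505 to 0.0601). In SK-N-AS it did not pass, at 11.1 to 12.7 CPM in controls and 11.8 to 13.6 CPM after knockdown (log2 0.05, 95% interval -0.08 to 0.18).

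Differences in response were tested as an interaction in a joint edgeR model. Between the SK-N-SH experiments, which share the line but not the method or the controls, the CRISPRi response lay above the siRNA response for 6 of the 10 genes (15.1% of the 23287 genes tested, and 31.4% differing either way). The largest differences in log2 fold change were in VCAM1 (2.63 ± 0.27, adjusted p = 4.86e-08), TNFAIP3 (2.57 ± 0.57, 0.000482) and RELB (1.13 ± 0.14, 4.59e-08). The TNFAIP3 value rests on 2, 4 and 6 reads in the CRISPRi controls, so it is not taken as support for a difference. NFKB2 differed by 0.65 (adjusted p = 9.87e-05), NFKBIA by 0.33 (0.0336) and NFKB1 by 0.24 (0.0208). NFKBIA lost this call without CRISPRi control library 1 or 2 or knockdown library 1 or 3 (adjusted p from 0.0553 to 0.122), and NFKB1 without control library 2 (0.0991) or knockdown library 2 (0.068). ICAM1 differed by 0.55 ± 0.23 and did not pass (adjusted p = 0.0907), though it did without siRNA control library 4 (0.00243) or 5 (0.0323). SOD2, at 0.19 (0.34), passed without siRNA control library 5 (0.022), and RELA and BIRC3 did not pass.

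Between the lines under CRISPRi, 7 of the 10 genes responded differently (30.7% of the 19863 genes tested). SK-N-AS lay above SK-N-SH for 5 genes (14.7% of all tested) and below it for 2 (16%). SOD2 had the largest difference upward, 1.32 ± 0.058 on the log2 scale (adjusted p = 9.1e-24), followed by ICAM1 at 0.66 (6.75e-11), BIRC3 at 0.56 (0.0093), NFKBIA at 0.23 (0.0052) and NFKB1 at 0.20 (0.0156). VCAM1 (-1.98 ± 0.15, adjusted p = 7.49e-15) and TNFAIP3 (-1.65, 0.00258) lay lower in SK-N-AS. The TNFAIP3 difference rests on an SK-N-SH fold with 2, 4 and 6 reads in the controls, so it is not taken as support for a difference between lines. Without SK-N-SH knockdown library 1 the BIRC3 difference did not pass (0.054), nor did NFKB1 without control library 3 or knockdown library 1 or 3 (adjusted p from 0.0526 to 0.119), nor NFKBIA without control library 3 (0.0674). For the noncanonical pair no difference passed, at 0.05 ± 0.072 for NFKB2 (adjusted p = 0.67) and -0.22 ± 0.11 for RELB (0.125), nor for RELA (-0.10, 0.194). Line and guide-carrying cell population change together in this comparison and cannot be told apart.

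The wider pathway was read from lists of related genes, counted against the same fits. These lists, too, were chosen with earlier results of these data known, so their counts are not independent support. Of all genes tested, 6.98% fell and 2.55% rose with siRNA. In SK-N-SH CRISPRi 27.7% rose and 28% fell, and in SK-N-AS 15.2% rose and 15.5% fell. Other classical target genes of NF-kB fell with siRNA (12 of 20 tested, 1 rose), and rose in SK-N-SH CRISPRi (13 of 16, none fell) and SK-N-AS (15 of 21, 1 fell). PLAU, the urokinase protease, fell 4.10-fold with siRNA (286.8 ± 25.97 to 69.96 ± 6.002 CPM, adjusted p = 2.61e-12) and rose 2.42-fold in SK-N-SH CRISPRi and 2.29-fold in SK-N-AS. The complement gene C3 rose 2.67-fold in SK-N-AS (166.7 ± 7.54 to 446.2 ± 12.2 CPM) and the chemokine CXCL8 2.97-fold (7.67 ± 0.724 to 22.5 ± 2.19 CPM). In SK-N-SH CRISPRi neither was tested, C3 having no reads and CXCL8 15 in each group. With siRNA CXCL8 fell 9.5-fold, with wide spread in the controls (16.37 ± 7.70 to 1.705 ± 0.515 CPM, adjusted p = 0.000603), and C3 did not pass (0.156). GADD45B, a stress-response gene, was the only gene of the pathway lists called in one direction throughout. It rose by log2 0.57, 0.38 and 0.42 (adjusted p = 0.00454, 8.71e-06 and 0.0347). The marker lists were not searched for such genes. Medians over the target list were -0.56, 0.62 and 0.30 (log2), beside 0.01, -0.01 and 0.00 over all genes tested.

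Of the ligands and receptors of the TNF, IL-1 and Toll-like families, 4 of 8 tested fell with siRNA (6.98% of all genes). In SK-N-SH CRISPRi 5 of 5 rose (27.7% of all genes) and in SK-N-AS 10 of 10 (15.2%). IL1R1, the signalling receptor of IL-1, fell 1.28-fold with siRNA (adjusted p = 5.98e-05) and rose 2.61-fold in SK-N-SH CRISPRi and 1.36-fold in SK-N-AS. IL1B, a ligand of that receptor, rose 4.29-fold in SK-N-AS (22.3 ± 0.786 to 95.3 ± 4.38 CPM, n = 4, adjusted p = 1.27e-29) and had no reads in SK-N-SH CRISPRi. With siRNA IL1B stood at 0.531 ± 0.261 CPM in controls and 0.0744 ± 0.0498 CPM after knockdown, a mean under the count filter of 0.133 CPM. TLR4 had 2 control and 44 knockdown reads in SK-N-SH CRISPRi and passed through the knockdown libraries. Both calls are in the counts above, and neither is support for a change. Among other Rel and IkB family genes, NFKBIZ, a nuclear cofactor that is itself strongly inducible, fell with siRNA (log2 -0.68) and rose in both CRISPRi experiments (1.33 and 0.67). The list counts were 1 down of 6, 2 up of 6 and 3 up of 6.

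Upstream parts and brakes were counted in the same way. Of all genes tested, 9.53% changed either way with siRNA, 55.8% in SK-N-SH CRISPRi and 30.6% in SK-N-AS. Canonical kinases and adaptors were 2 up and 4 down of 21 with siRNA, 11 up of 21 in SK-N-SH CRISPRi, and 4 up and 3 down of 21 in SK-N-AS. IKBKB, a catalytic IKK subunit, fell 1.34-fold with siRNA, rose 1.45-fold in SK-N-SH CRISPRi and fell 1.07-fold in SK-N-AS (adjusted p = 0.0386). In the noncanonical arm no gene of 8 passed with siRNA, 3 rose and 1 fell of 7 in SK-N-SH CRISPRi, and 6 rose and 2 fell of 11 in SK-N-AS. The gene that fell in SK-N-SH CRISPRi was TNFRSF13C, with 68 control and 24 knockdown reads. Its knockdown mean of 0.521 CPM lay under the count filter of 0.634 CPM there. This call is in the count and is not support for a fall. MAP3K14 (NIK) did not pass with siRNA (log2 0.23, adjusted p = 0.0726), rose in SK-N-SH CRISPRi (0.31, 0.00406) and fell in SK-N-AS (-0.31, 0.00274), the last value being named after it was seen. TRAF3, which targets NIK for degradation, rose 1.19-fold in SK-N-AS, and BIRC2 rose in both CRISPRi experiments (log2 0.24 and 0.23). Other brakes were 1 up and 4 down of 11, 8 up of 11, and 5 up and 1 down of 12, and TNIP1, a partner of A20, changed by log2 -0.28, 0.31 and 0.43 in turn.

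Lists related to the effectors gave mixed counts. The inhibitor of apoptosis family and caspases had 1 down of 11 with siRNA, 5 up and 3 down of 10 in SK-N-SH CRISPRi, and 3 up of 11 in SK-N-AS. CASP8, the initiator caspase of death receptors, fell 1.21-fold with siRNA and rose 1.75-fold and 1.11-fold in the CRISPRi experiments. Other antioxidant enzymes had 2 down, then 2 up and 3 down, then 1 up, of 10 each, so in SK-N-AS only GPX1 of that list (log2 0.22) rose beside SOD2. Adhesion relatives, integrin partners and linkers were 4 down of 11, 4 up and 2 down of 11, and 6 up and 2 down of 14. ITGA4 and ITGB1, the VCAM1 receptor, rose in SK-N-SH CRISPRi (log2 0.35 and 0.82). With siRNA ITGA4 did not pass (-0.13), and it fell in SK-N-AS (-0.42, adjusted p = 8.42e-08), while ITGB1 rose in SK-N-AS (0.17) and fell with siRNA (-0.24, adjusted p = 0.000577). In SK-N-SH CRISPRi ITGA9 fell (39.5 ± 2.77 to 6.90 ± 0.983 CPM), while it rose in SK-N-AS (log2 1.01) and did not pass with siRNA (0.05). Of all genes tested, 2.55% rose and 6.98% fell with siRNA, 27.7% and 28% in SK-N-SH CRISPRi, and 15.2% and 15.5% in SK-N-AS.

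**Figure D5:**
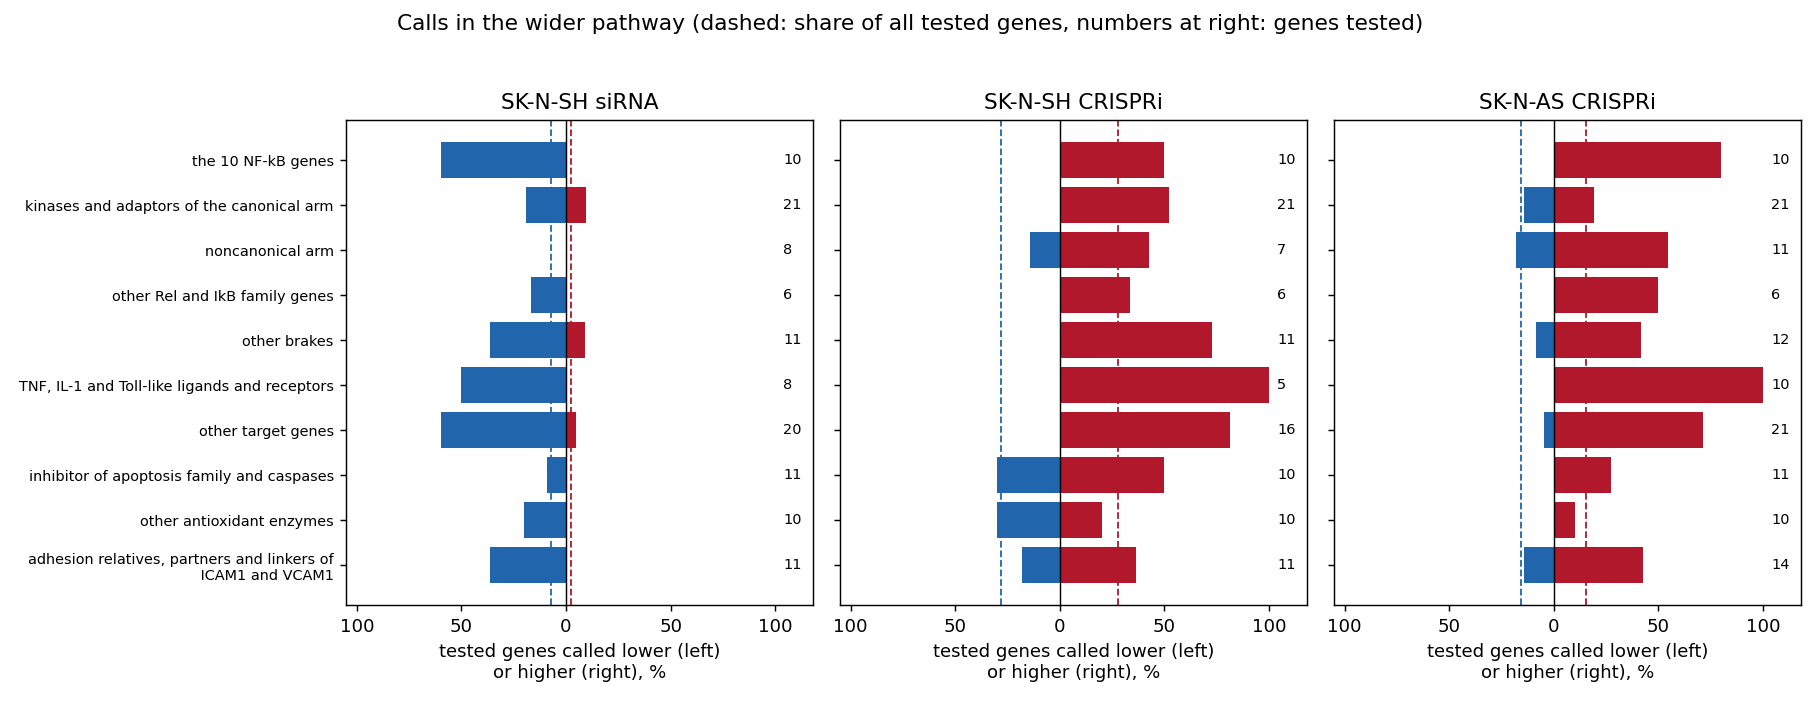
Share of tested genes called lower (left, blue) or higher (right, red) in each list and experiment (x axis, %), with the number tested at the right and dashed lines at the share of all tested genes. Target genes extend left with siRNA (12 of 20) and right in SK-N-SH CRISPRi (13 of 16) and SK-N-AS (15 of 21).

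With siRNA, the share of called genes that rose over all genes was 26.8% and became 43.3% under upper quartile scaling, while the 10 genes kept 6 falls and no rise.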

How the data were processed

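The 3 experiments were analysed from raw counts per gene, deposited by the authors as 1 table each. Per the submitters' processing notes, bcl2fastq (2.20.0.422 and 2.20), CASAVA, FastQC 0.11.8, STAR 2.6.1d and featureCounts 1.5.1 were used with GRCh38; the sources used here do not give their roles, the annotation release or the strand setting. Per the labels' protocols, the Illumina Stranded mRNA Prep served for CRISPRi, and poly-T selection followed by either a stranded or a non-stranded preparation for siRNA. SOD2 carries another Ensembl ID in the SK-N-AS table and was joined by NCBI gene ID and coordinates.

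Each experiment was fitted alone in edgeR 4.0.16 (R 4.3.3): filterByExpr (minimum count 10, minimum total 15), TMM scaling, robust quasi-likelihood fit and two-sided test, Benjamini-Hochberg adjustment over all genes tested, threshold 0.05. CPM are counts over TMM-scaled library sizes. Differences in response were tested as interactions over 2 joined tables with each experiment's own controls. The fits were also run on counts simulated from the same fitted model, which cannot show misfit of that model or effects of single libraries. Alternatives were RLE and upper quartile scaling, DESeq2 1.42.0, no filter, a filter at 1 CPM, no robust option, named genes only, a replicate block, and each library left out; 3 fits without pairs of siRNA libraries were added after seeing the data. The 10 genes and all lists were chosen with earlier results of these data known. Named genes are the 10, FAM167A and up to 4 called genes of each pathway list and experiment with the smallest adjusted p. Genes of the pathway lists called alike in all 3 experiments are named too. MAP3K14 in SK-N-AS, the SOD2 neighbours WTAP and ACAT2, CLDN4, CD3E and PTPRC were named after their values were seen. Per-kilobase levels use the gene lengths of the siRNA table. Promoter windows come from RefSeq.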

Additional observations from a re-analysis of the deposited data

Results flagged for a closer look

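In 5 of 40 groups of 4 or 5 libraries looked at, 1 library stood apart from the rest; chance alone flags about 1 in 20 groups. With siRNA, control library 4 had 1.11 CPM of TNFAIP3 (the other controls 0.427 to 0.552) and 47.9 CPM of ICAM1 (the others 26.4 to 32.4). Knockdown library 2 had 0.554 CPM of TNFAIP3 (the others 0.374 to 0.423), and knockdown library 3 had 5.13 CPM of VCAM1 (the others 3.59 to 3.97). In SK-N-AS, knockdown library 4 had 252.7 CPM of NFKBIA (the others 260.9 to 261.3).

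Responses differed between the SK-N-SH experiments by interaction test, CRISPRi minus siRNA on the log2 scale, for NFKB1 (0.24), NFKB2 (0.65), RELB (1.13), NFKBIA (0.33), TNFAIP3 (2.57) and VCAM1 (2.63). Between lines, SK-N-AS minus SK-N-SH under CRISPRi, they differed for NFKB1 (0.20), NFKBIA (0.23), BIRC3 (0.56), SOD2 (1.32) and ICAM1 (0.66), and in the other direction for TNFAIP3 (-1.65) and VCAM1 (-1.98). TNFAIP3 had 2, 4 and 6 reads in the SK-N-SH CRISPRi controls, so its values are not taken as support for a difference.

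SK-N-SH siRNA and SK-N-AS CRISPRi differ in line and method, and the difference between their responses was not tested. Every siRNA knockdown library lay below its controls and every SK-N-AS knockdown library above its own for NFKB2, RELB and ICAM1, whose log2 fold changes were 0.72, 0.93 and 1.24 apart.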

How the results depend on the processing

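No value changed direction past the threshold under any alternative, and the counts of genes called stayed within 1.5 times (1406 to 2515 with siRNA, 7363 to 8590 in SK-N-SH CRISPRi, 5149 to 5900 in SK-N-AS). In SK-N-AS all 10 genes kept their call in all 16 alternatives. With siRNA the count of the 10 genes that fell, 6, ranged from 2 to 7 with 1 library left out and was 3 without knockdown libraries 3 and 4, a fit added after seeing the data; NFKB2 and RELB kept their call in all 21 alternatives, NFKBIA, ICAM1, VCAM1 and SOD2 did not. ICAM1 also lost its call with no filter (adjusted p = 0.0628), where BIRC3 passed (0.0308). In SK-N-SH CRISPRi the count of the 10 genes that fell, 0, became 1 (SOD2) with upper quartile factors, a filter at 1 CPM, named genes only or a replicate block, and ranged from 0 to 1 with 1 library left out. The difference of ICAM1 between SK-N-SH experiments passed with DESeq2 (0.0368) and a filter at 1 CPM (0.0482). TNFAIP3 was not tested in either SK-N-SH experiment at that filter, which limits what its low counts can show. Same-numbered libraries showed no clear shared deviation from their group means, which does not settle whether they were handled in pairs. They correlated between -0.14 and 0.05 with siRNA, -0.02 and 0.03 in SK-N-SH CRISPRi and -0.03 and 0.01 in SK-N-AS. Libraries correlated best with their own number in 1 of 5, 1 of 3 and 0 of 4. A replicate block gave 1532, 8460 and 5894 genes called and 5 of the 10 falling with siRNA, NFKBIA losing its call (0.0627), also for the difference between SK-N-SH experiments (0.0599). All siRNA table genes have a name, so that choice changed nothing there.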

Other observations

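The siRNA control library that was highest for all 10 genes was also the highest control for 17 of the 20 tested genes of the target list (85%), against 18.9% of all genes tested. These counts were made after the library had been singled out, and no cause was tested.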
